A study of Mus musculus with 6 samples.

Results

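Transcripts of the antibody genes were followed in RNA-seq libraries of mouse bone marrow neutrophils, cells that are not antibody producers. The deposited expression table holds 395 rows whose symbol names a segment of the immunoglobulin heavy chain (Igh), kappa (Igk) or lambda (Igl) locus, of 52636 rows in all, and 52 of these had a mean level of at least 1 TPM, a level scaled for gene length and for the library's total, over the 6 libraries and make up the set described here. The rows were thus selected on their level over both groups. The 52 rows were 25 of the heavy chain (6 constant genes, 18 variable segments and 1 joining segment), 22 of kappa (the constant gene Igkc and 21 variable segments) and 5 of lambda (3 constant genes and 2 variable segments). Of the other matching rows, 161 were listed at 0 in every library and the rest had a mean above 0 and under 1 TPM. None of the 20 heavy chain diversity rows and none of the 5 kappa joining rows reached the threshold.

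The series compared 3 libraries labelled WT with 3 labelled KO, here called libraries labelled LRP5-null, whose mice carried floxed alleles of the lipoprotein receptor family gene Lrp5 and a Cre recombinase driven by the myeloid gene Lyz2. All mice were of the C57BL/6N strain, 10 weeks old, with no treatment named, and the labels name no Cre in those labelled WT. Lyz2-driven Cre also acts in monocytes and macrophages. The labels describe a discontinuous Percoll gradient of marrow and an mRNA kit, and the study's methods describe a sort of CD11b and Ly6G double-positive cells and a stranded total RNA kit, so how other marrow cells were removed is not settled. The labels do not say whether libraries of a group came from separate animals, so the p-values below measure only the spread between these libraries, which may be technical.

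An antibody is made of heavy and light chains, and each chain gene is assembled in a developing B cell by joining 1 of many variable (V) segments to short joining (and, for the heavy chain, diversity) segments upstream of a constant gene. The constant gene sets the class (Ighm for IgM, Ighd for IgD, Igha for IgA and the Ighg genes for IgG), and the light chain is either kappa or lambda. Each mature B cell or plasma cell carries its own rearrangement, so the mixture of V segments in an RNA sample reflects which B lineage clones contributed to it, while unrearranged segments can also give rise to germline transcripts.

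The test of the group difference (limma on log2(TPM + 1), adjusted p under 0.05) called 10 of the 52 members, beside 0.532% of all rows tested. Of the 10, 8 were kappa V segments, and 6 had a group mean under 1 TPM and so entered the set through the group in which they were high. The germline sequences of 6 kappa V segments are shown because they bear on how far reads can be told apart between segments. Each is a 300-base stretch of the spliced coding sequence of the unrearranged segment from the GENCODE M1 annotation of NCBIM37 (mm9), on chromosome 6, read 5′ to 3′ in the direction of the gene. Positions are counted from the first coding base in that annotation. The annotated models of Igkv8-19 and Igkv8-28 are incomplete, so their positions cannot be compared with those of the other segments shown. Igkv8-19 (chr6:70290870-70291174, minus strand) and Igkv8-28 (chr6:70093587-70093891, minus strand) differed at 7 of 305 aligned bases, which are in capitals in bases 1 to 300 below. Their longest identical stretch was 77 bases, under the read length of 94 bases in the deposited read summary. The study's methods name single-end reads that are shorter than this stretch.
Igkv8-19: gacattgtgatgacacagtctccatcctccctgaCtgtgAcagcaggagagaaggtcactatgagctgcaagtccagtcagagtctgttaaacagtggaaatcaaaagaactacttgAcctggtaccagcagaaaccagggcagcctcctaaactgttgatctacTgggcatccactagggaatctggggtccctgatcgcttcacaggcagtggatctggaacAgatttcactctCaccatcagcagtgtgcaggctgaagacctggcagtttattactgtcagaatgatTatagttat
Igkv8-28: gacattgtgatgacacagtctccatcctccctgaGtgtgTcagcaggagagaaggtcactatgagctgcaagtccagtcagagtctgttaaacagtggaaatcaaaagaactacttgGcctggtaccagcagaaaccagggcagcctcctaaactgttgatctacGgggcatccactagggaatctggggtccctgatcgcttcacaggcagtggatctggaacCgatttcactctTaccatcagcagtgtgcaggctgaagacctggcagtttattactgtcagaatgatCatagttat
Igkv1-110 (chr6:68220521-68221261, plus strand) and Igkv1-117 (chr6:68071085-68071821, plus strand) differed at 10 of 359 bases and share the 142-base stretch in capitals, which is longer than a read, so the 2 rows could exchange reads (bases 60 to 359 are shown).
Igkv1-110: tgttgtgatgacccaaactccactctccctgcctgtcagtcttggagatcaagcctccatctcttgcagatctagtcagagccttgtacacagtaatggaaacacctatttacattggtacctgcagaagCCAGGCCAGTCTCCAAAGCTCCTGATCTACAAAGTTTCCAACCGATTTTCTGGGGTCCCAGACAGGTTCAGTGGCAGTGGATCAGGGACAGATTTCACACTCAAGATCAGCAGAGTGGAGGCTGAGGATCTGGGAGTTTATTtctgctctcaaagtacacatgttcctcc
Igkv1-117: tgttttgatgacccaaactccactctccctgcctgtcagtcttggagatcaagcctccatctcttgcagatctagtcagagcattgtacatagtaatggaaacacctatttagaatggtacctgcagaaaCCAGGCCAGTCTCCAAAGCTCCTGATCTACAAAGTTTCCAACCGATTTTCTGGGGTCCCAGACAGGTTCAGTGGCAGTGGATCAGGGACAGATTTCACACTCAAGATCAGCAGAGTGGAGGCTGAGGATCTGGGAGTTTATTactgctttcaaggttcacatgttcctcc
Igkv16-104 (chr6:68375599-68376066, plus strand), the only member of its family in the set, shares at most the 31 bases in capitals with any of the 100 kappa V sequences searched (with Igkv14-100), and Igkv5-48 (chr6:69676567-69677119, minus strand) shares at most the 26 in capitals (with Igkv1-110); bases 1 to 300 are shown for both.
Igkv16-104: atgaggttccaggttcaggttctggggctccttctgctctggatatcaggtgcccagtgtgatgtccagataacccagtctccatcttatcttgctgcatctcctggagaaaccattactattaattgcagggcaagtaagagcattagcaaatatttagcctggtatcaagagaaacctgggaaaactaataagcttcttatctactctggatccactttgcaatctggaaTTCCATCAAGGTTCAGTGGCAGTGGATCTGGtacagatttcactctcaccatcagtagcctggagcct
Igkv5-48: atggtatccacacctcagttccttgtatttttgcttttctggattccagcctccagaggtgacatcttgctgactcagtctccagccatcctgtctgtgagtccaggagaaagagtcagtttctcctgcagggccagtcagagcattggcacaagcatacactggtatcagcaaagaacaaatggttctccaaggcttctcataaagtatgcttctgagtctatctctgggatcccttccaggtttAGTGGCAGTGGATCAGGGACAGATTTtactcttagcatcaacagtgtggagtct

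Before the members, the libraries themselves were checked. The targeted gene did not follow the labels, since Lrp5 was at 1.12, 1.31 and 1.42 TPM in the WT libraries and at 1.68, 1.77 and 2.07 TPM in those labelled LRP5-null. A gene-level TPM also counts exons outside the floxed part, and the deleted exons cannot be seen in it, so every direction below rests on the labels alone. Total reads ranged from 249841492 to 340580330 per library. Ribosomal reads made up 1.20% and 1.30% of reads in WT 1 and WT 2, 3.30% in WT 3 and 2.69% to 2.98% in those labelled LRP5-null, and intronic reads made up 7.78% to 9.0% in WT and 10.62% to 11.23% in the others. WT 3 thus stood apart from its group in ribosomal reads, and members whose call changes without it are given both ways. Without WT 3, the share of ribosomal reads no longer overlaps between the groups. Label and ribosomal share therefore cannot be told apart in that fit. The share of intronic reads did not overlap between the groups with all libraries, so it cannot be told apart from the label in any fit. The neutrophil label held, with the 14 neutrophil markers summing to 398396 to 447279 TPM.

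Summed over the chains, immunoglobulin transcripts were few, and their amount overlapped between the groups. The 52 rows together held 403, 377 and 414 TPM in WT 1, 2 and 3 and 376, 401 and 407 TPM in the 3 libraries labelled LRP5-null, about 0.04% of all TPM (0.0398% ± 0.0019 against 0.0394% ± 0.0017, SD, n = 3 each). Heavy chain rows summed to 243 ± 13.7 TPM in WT and 250.2 ± 14.7 TPM in the libraries labelled LRP5-null (SD, n = 3 each). Kappa rows summed to 139 ± 11.2 against 127 ± 3.5 TPM, and lambda rows to 16.5 ± 1.8 against 17.1 ± 0.8 TPM. For each of the 3 chains the values of the 2 groups overlapped, and the log2 ratio of the group means lay between -0.12 for kappa and 0.05 for lambda, with a pooled SD between libraries of 0.08 to 0.12 on that scale. In bulk RNA, fewer cells of a type and less RNA per cell cannot be told apart.

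**Figure D1:**
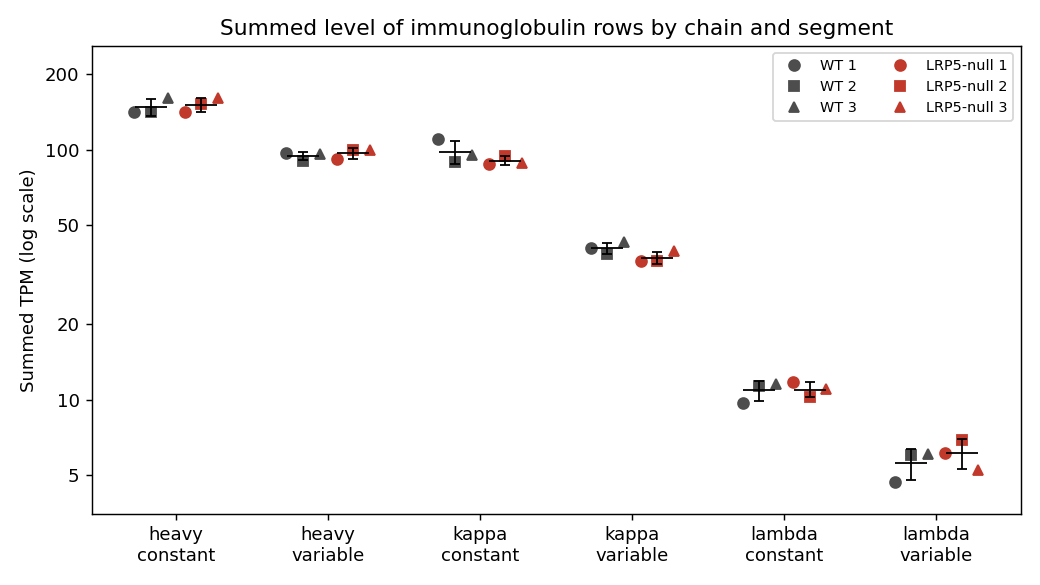
Summed TPM (log scale) of constant and of variable rows for the heavy, kappa and lambda chains, 1 point per library (gray, WT; red, labelled LRP5-null), with horizontal black bars for group means and whiskers for the SD (n = 3). In all 6 classes the points of the 2 groups overlap, from about 150 TPM for heavy constant rows to about 6 TPM for lambda variable rows.

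Constant rows outweighed variable rows in every chain. Heavy constant rows summed to 148 ± 11.6 TPM in WT and 152 ± 10.1 TPM in the libraries labelled LRP5-null, and heavy V rows to 94.3 ± 3.4 and 97.0 ± 4.8 TPM. The ratio of variable to constant was 0.64 in both groups for the heavy chain, 0.41 in both for kappa, and 0.51 against 0.56 for lambda, with overlapping libraries each time. These ratios depend on which rows are summed, since many segments lie under the threshold, and over every matching row they were 0.80 for heavy and 0.68 for kappa as the mean of the 6 libraries. Kappa made up 89.9% ± 1.7 of light chain constant TPM in WT and 89.1% ± 1.0 in the libraries labelled LRP5-null, and light chain constant rows held 0.74 and 0.67 times the TPM of heavy constant rows.

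Ighm, the IgM constant gene, was the most abundant member, at 110.2, 106 and 119 TPM in WT 1, 2 and 3 and at 106, 114 and 122 TPM in the libraries labelled LRP5-null, rank 868 of all rows. Igkc, the only kappa constant gene, followed at 109.9, 89.4 and 95.1 TPM in WT and at 87.5, 94.6 and 88.7 TPM in the others, rank 1029. The groups overlapped for both genes, with log2 fold changes of 0.03 ± 0.08 and -0.12 ± 0.09 (standard error; limma adjusted p = 0.847 and 0.463). Igha, the IgA constant gene, came next among the constant genes at 20.1, 25.1 and 31.4 TPM in WT and at 25.6, 26.8 and 28.4 TPM in the libraries labelled LRP5-null, again overlapping.

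Ighg1, the constant gene of the IgG1 class, was the only constant gene to pass the test. It was at 0.754, 0.87 and 0.691 TPM in the WT libraries and at 1.65, 1.75 and 1.91 TPM in those labelled LRP5-null. All 3 of the latter lay above all 3 WT libraries, a 2.29-fold difference of the means (log2 fold change 0.65 ± 0.08, limma adjusted p = 0.036). Ighg2b, the most abundant IgG constant gene at 6.02 TPM, overlapped between groups (log2 fold change -0.01 ± 0.11, limma adjusted p = 0.983). Ighg2c and Ighd went the other way without passing the test. Ighg2c was at 1.93, 1.73 and 2.43 TPM in WT and at 1.23, 1.71 and 1.64 TPM in the libraries labelled LRP5-null (log2 fold change -0.26 ± 0.12, limma adjusted p = 0.234), and Ighd, the IgD constant gene, was at 1.85, 1.62 and 1.42 against 1.09, 1.13 and 1.39 TPM (log2 fold change -0.26 ± 0.10, limma adjusted p = 0.182). As a share of heavy constant TPM, Ighg1 was 0.527% ± 0.094 in WT and 1.17% ± 0.01 in the others, whereas the IgG genes together held 5.98% ± 0.50 and 6.13% ± 0.10 and Ighm 75.7% ± 2.3 and 75.3% ± 0.2. The 3 lambda constant genes Iglc1, Iglc2 and Iglc3 had means of 4.54, 3.74 and 2.65 TPM, and the groups overlapped for each.

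Among the heavy V rows the level was concentrated in a few, and the most abundant was a row that RefSeq lists as a pseudogene. Ighv1-41, that pseudogene, was at 41.6, 34.1 and 34.6 TPM in WT and at 34.8, 35.2 and 37.6 TPM in the libraries labelled LRP5-null. Ighv8-10, also a pseudogene in RefSeq, was at 11.3, 13.8 and 11.4 TPM in WT and at 14.2, 15.7 and 14.6 TPM in the others, not overlapping but short of the test (log2 fold change 0.27 ± 0.10, limma adjusted p = 0.163). These 2 rows held 51.9% ± 3.5 of summed heavy V TPM in WT and 52.3% ± 1.2 in the libraries labelled LRP5-null. They are 2 of the 124 V rows that RefSeq lists as pseudogenes, whereas 39 of the 224 V rows listed as functional segments reached the threshold. Without them the ratio of heavy V to heavy constant TPM was 0.307 ± 0.004 in WT and 0.306 ± 0.013 in the libraries labelled LRP5-null. Whether reads of these rows come from rearranged antibody transcripts was not tested.

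The remaining abundant heavy V segments, Ighv1-64 (mean 16.1 TPM), Ighv1-73 (4.98 TPM) and Ighv1-53 (4.26 TPM), overlapped between groups. For Ighv1-64 the limma adjusted p was 0.292 with all libraries and 0.030 without WT 3. Of the 18 heavy V rows, 1 passed the test. Ighv1-26 was at 2.94, 2.65 and 3.39 TPM in WT and at 1.49, 1.34 and 1.55 TPM in the libraries labelled LRP5-null. Every WT library was above every other library, a 2.05-fold difference (log2 fold change -0.70 ± 0.10, limma adjusted p = 0.037). Ighv13-2 had the third largest positive change of the 52 rows and did not pass the test, at 0.727, 0.795 and 0.828 TPM in WT and 1.83, 1.87 and 3.12 TPM in the others (log2 fold change 0.85 ± 0.15, limma adjusted p = 0.065, and 0.025 without WT 3). It was under 1 TPM in every WT library and so entered the set through the libraries labelled LRP5-null. The single joining row of the set, Ighj1, was at 1.08, 0.926 and 1.39 TPM in WT and 1.41, 1.90 and 1.70 TPM in the libraries labelled LRP5-null, adjacent but not overlapping (log2 fold change 0.33 ± 0.11, limma adjusted p = 0.160, and 0.045 without WT 3).

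The kappa V segments were all low, with means from 1.04 to 3.46 TPM, and 8 of the 21 passed the test. Of the 9775 rows tested over the whole table, 52 had a limma adjusted p under 0.05, or 0.532% (0.266% in each direction), and 10 of those 52 were immunoglobulin rows. The threshold contributes to this count, since 6 of the 10 were among the 15 members with a group mean under 1 TPM, which passed the threshold through the other group, whereas 4 of the 37 members with both means of at least 1 TPM were called. The 6 were Igkv16-104, Igkv8-27, Igkv3-12, Igkv5-48, Igkv10-94 and Ighg1. Of the 10, 8 were kappa V segments (8 of 21), of which 3 were higher under the LRP5-null label and 5 lower, and the others were Ighv1-26 and Ighg1. All 10 had means under 5 TPM, where 0.561% of all tested rows were called. No call survived the removal of WT 2, of library 1 labelled LRP5-null or of library 3 labelled LRP5-null. Only 3, 2 and 2 rows of the whole table were called in these fits. Without WT 1, 18 rows of the table were called, 3 of them members. Without library 2 labelled LRP5-null, 15 rows were called, 1 of them a member. Without WT 3, 1920 rows were called, 20 of them members. The 20 were the 10 and Igkv1-117, Ighv13-2, Igkv8-28, Igkv14-111, Ighv1-64, Ighv3-6, Igkv4-72, Ighj1, Igkv4-91 and Igkv6-23, with adjusted p of 0.010 to 0.047 for these further 10 by limma without WT 3. For Igkv14-111, Ighv3-6, Igkv4-72 and Igkv4-91 the limma adjusted p was 0.068, 0.067, 0.078 and 0.232 with all libraries. Without WT 3 it was 0.029, 0.031, 0.039 and 0.046. A further fit was made against WT 3 alone, where the lone library is assumed to vary like the 3 labelled LRP5-null. Its median log2 fold change was -0.11 over the 52 members and -0.0065 over all tested rows. The direction of all 10 stayed the same in each of these fits, as it had to, since their groups did not overlap.

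Igkv16-104 (ENSMUSG00000076522.2) showed the largest change. It was at 4.71, 3.14 and 3.69 TPM in WT 1, 2 and 3 and at 0.483, 0.96 and 0.798 TPM in the libraries labelled LRP5-null. The lowest WT library was more than 3 times above the highest of the others, and the means differed 5.15-fold (log2 fold change -1.47 ± 0.15, limma adjusted p = 0.022). Igkv8-27 was at 2.13, 1.80 and 2.63 TPM in WT and at 0.616, 0.64 and 0.389 TPM in the libraries labelled LRP5-null, with no overlap and a 3.99-fold difference (log2 fold change -1.04 ± 0.12, limma adjusted p = 0.031). Igkv8-19 was at 3.48, 2.99 and 3.53 TPM in WT and at 1.66, 1.48 and 1.38 TPM in the others (log2 fold change -0.79 ± 0.09, limma adjusted p = 0.031). For both segments of the Igkv8 family every library labelled LRP5-null lay below every WT library.

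The 2 further segments that fell were tight within each group. Igkv3-12 was at 2.07, 2.55 and 2.35 TPM in WT and at 0.961, 0.943 and 0.9 TPM in the libraries labelled LRP5-null (2.49-fold, log2 fold change -0.78 ± 0.09, limma adjusted p = 0.028). Igkv12-44 was at 1.93, 2.04 and 1.93 TPM in WT and at 1.05, 1.05 and 1.01 TPM in the others (1.90-fold, log2 fold change -0.54 ± 0.07, limma adjusted p = 0.037). Neither overlapped between groups.

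Among the segments that rose, Igkv1-110 was the most abundant, at 2.24, 1.68 and 2.15 TPM in WT and at 4.06, 4.17 and 4.37 TPM in the libraries labelled LRP5-null (2.08-fold, log2 fold change 0.79 ± 0.10, limma adjusted p = 0.034). Igkv5-48 was at 0.485, 0.48 and 0.467 TPM in WT and at 1.95, 1.76 and 1.20 TPM in the others (3.43-fold, log2 fold change 0.82 ± 0.12, limma adjusted p = 0.041). Igkv10-94 was at 0.598, 0.377 and 0.645 TPM in WT and at 1.43, 2.38 and 1.89 TPM in the others (3.52-fold, log2 fold change 0.91 ± 0.14, limma adjusted p = 0.048). None of the 3 overlapped between groups. Igkv5-48 and Igkv10-94 were under 1 TPM in every WT library, so their mean passed the threshold through the libraries labelled LRP5-null. Igkv8-28 had the largest positive change, at 0.116, 0.727 and 0.218 TPM in WT and at 1.40, 1.92 and 1.88 TPM in the others, without passing the test (log2 fold change 1.03 ± 0.17, limma adjusted p = 0.059, and 0.025 without WT 3). It too was under 1 TPM in every WT library and entered the set through the other group, so its rank partly follows from the threshold.

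**Figure D2:**
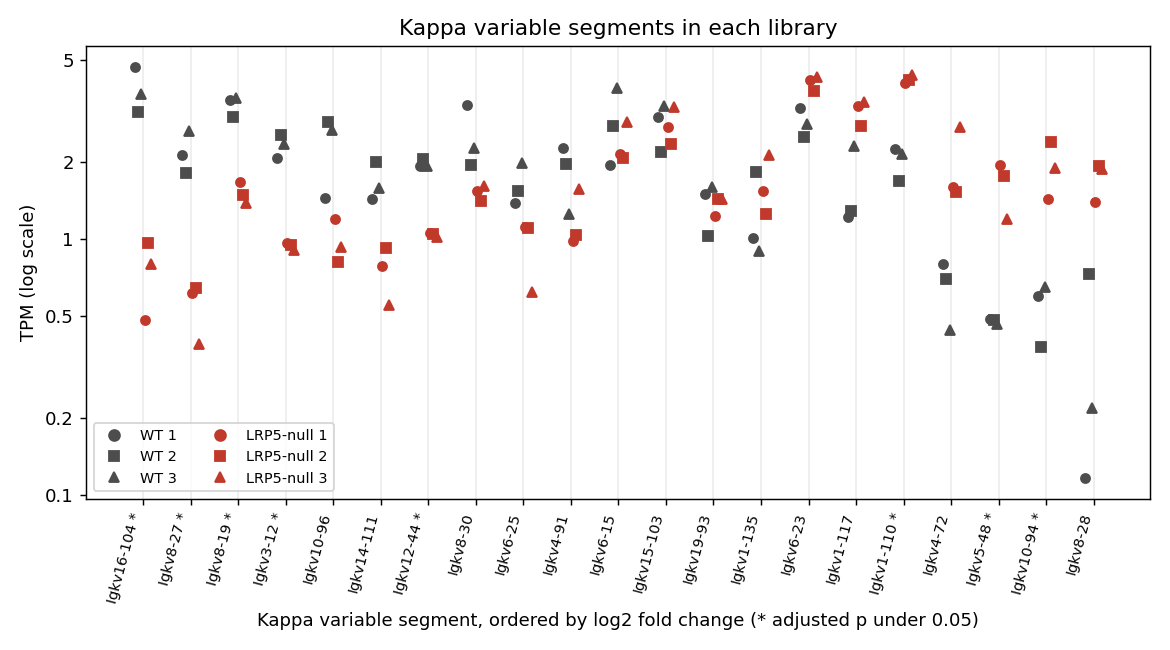
TPM (log scale) of the 21 kappa V segments in each library (gray, WT; red, labelled LRP5-null; the marker shape gives the replicate), ordered by log2 fold change from the lowest at the left, with an asterisk for a limma adjusted p under 0.05. Red points lie under all gray points for 9 segments, over all gray points for 7 and among them for 5.

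Counting only the order of the libraries, 16 of 21 kappa V segments did not overlap between groups (7 with the libraries labelled LRP5-null on top and 9 with them below), against 4 of 18 heavy V segments and 3 of 10 constant genes. Over all 9775 tested rows, 29.7% did not overlap (17.4% higher and 12.3% lower), and over all rows from 1 to under 5 TPM, 27.9%. The threshold contributes to the count, since 15 of the 52 members had a group mean under 1 TPM and passed through the other group (8 through WT and 7 through the libraries labelled LRP5-null), and 13 of those 15 did not overlap, whereas 11 of the 37 members with both means of at least 1 TPM did not overlap (29.7%, the share of all tested rows). Among kappa V rows above 0 and under 1 TPM, which are not in the set, 18 of 72 (25.0%) did not overlap, and 23 of 93 (24.7%) among such heavy V rows, beside 12.3% of all rows in that range. Over every matching row above 0 the count was 67 of 234, beside 19.6% of all rows above 0. Abundant kappa V segments that did overlap were Igkv15-103, at 2.99, 2.17 and 3.31 TPM in WT and 2.74, 2.35 and 3.26 TPM in the others, and Igkv6-15, at 1.94, 2.77 and 3.87 TPM against 2.15, 2.07 and 2.86 TPM. Igkv6-23, the most abundant kappa V segment, did not overlap, at 3.23, 2.5 and 2.8 TPM against 4.15, 3.79 and 4.30 TPM, but did not pass the test (log2 fold change 0.41 ± 0.10, limma adjusted p = 0.099, and 0.047 without WT 3).

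Higher and lower segments offset each other in the sum. The 21 kappa V segments summed to 40.3, 38.3 and 42.6 TPM in WT and to 35.9, 35.7 and 39.2 TPM in the others, overlapping, and the most abundant segment of each library held 9.66% ± 1.82 of that sum in WT and 11.5% ± 0.3 in the others, again overlapping. The median log2 fold change over all 52 members was 0.00 on this scale, beside 0.04 over all tested rows. Segments called by limma lay between 1.06 and 3.11 TPM, and none of the 6 members of at least 10 TPM passed the test.

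**Figure D3:**
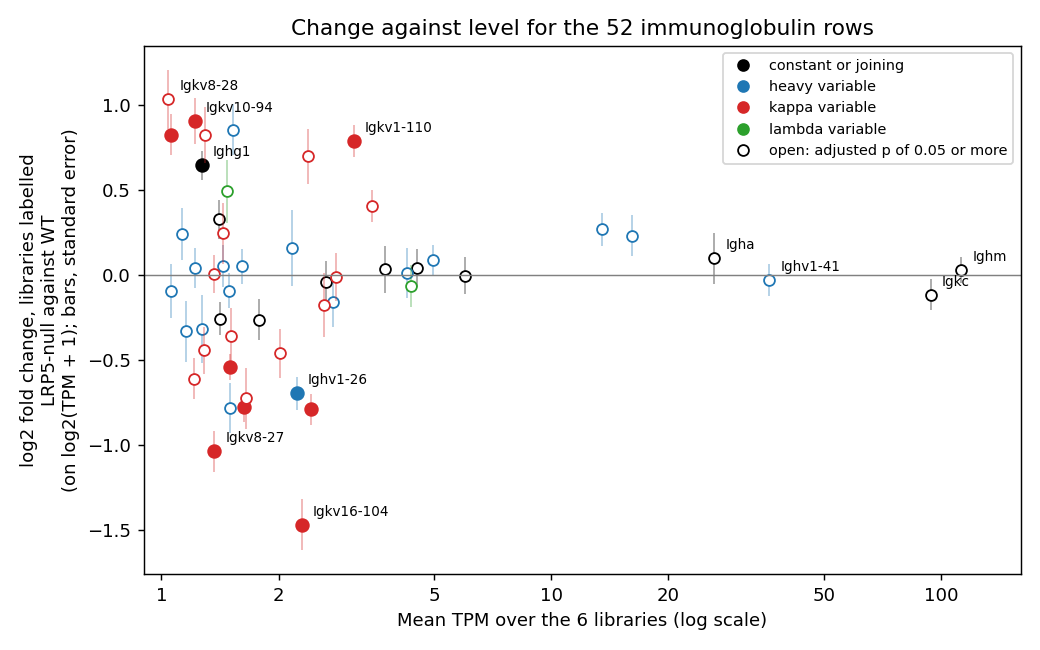
The log2 fold change on log2(TPM + 1), with its standard error as a bar, against mean TPM over the 6 libraries (log scale) for the 52 members, coloured by class, with filled points for a limma adjusted p under 0.05. The filled points are 8 kappa V segments, Ighv1-26 and Ighg1, all under 5 TPM, and the 4 members over 20 TPM (Ighm, Igkc, Ighv1-41 and Igha) lie near 0.

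Segments of the Igkv8 and Igkv6 families differed in direction, but those that went against the others of their family were not called. The 4 Igkv8 segments of the set summed to 8.38 ± 0.83 TPM in WT and 5.30 ± 0.12 TPM in the libraries labelled LRP5-null, without overlap, with Igkv8-19, Igkv8-27 and Igkv8-30 lower. Igkv8-28, which differs from Igkv8-19 at 7 bases in the sequences shown above, was higher without passing the test. It entered the set through the libraries labelled LRP5-null, and the part of read assignment in its level was not tested. Igkv8-21, a matching row under the threshold, was higher too, at 0.204, 0 and 0.258 TPM in WT and at 1.49, 2.15 and 1.20 TPM in the libraries labelled LRP5-null. Over all 12 Igkv8 rows of the table the sums were 9.18 ± 0.66 and 7.48 ± 0.52 TPM, still without overlap but nearer to each other. The 3 Igkv1 segments of the set summed to 4.87 ± 0.45 against 9.0 ± 0.87 TPM, and all 13 Igkv1 rows to 6.16 ± 0.85 against 10.9 ± 1.05 TPM, both without overlap. Of these, Igkv1-117, named after its values were seen because it shares a read-length stretch with Igkv1-110, was at 1.22, 1.29 and 2.30 TPM in WT and at 3.31, 2.76 and 3.42 TPM in the others (log2 fold change 0.70 ± 0.16, limma adjusted p = 0.096, and 0.010 without WT 3). The 3 Igkv6 segments summed to 7.34 ± 1.14 and 7.38 ± 0.41 TPM, overlapping. Igkv6-23 was higher and Igkv6-25 lower without overlap (log2 fold changes 0.41 and -0.44), neither passing the test. The Igkv4 segments of the set summed to 2.46 ± 0.70 and 3.14 ± 1.0 TPM. Those of Igkv10 summed to 2.86 ± 0.71 and 2.88 ± 0.29 TPM, and both families overlapped. Igkv8-21, Igkv8-30 and Igkv6-25 were also named after their values were seen.

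Segments that passed the test were found both with and without long stretches shared with another segment. All 21 kappa V members had a sequence in GENCODE M1 (7 matched by identifier and 14 by symbol). Of these members, 7 share an exact stretch of at least 94 bases, the read length in the deposited read summary, with another kappa V segment. Some of these models are incomplete, since Igkv10-96 has only 123 bases and Igkv8-19, Igkv8-27 and Igkv8-28 have 300 to 305, against 344 to 365 for the other 17, so their longest shared stretches are lower bounds. Of the 8 that passed the test, 3 share such a stretch (Igkv1-110, Igkv3-12 and Igkv12-44) and 5 do not in the sequences searched (Igkv16-104, Igkv8-27, Igkv8-19, Igkv10-94 and Igkv5-48). The split depends on the read length. Igkv8-19 (77 bases) and Igkv10-94 (82 bases) share stretches longer than the single-end reads named in the study's methods. So do Igkv6-15 (81 bases), Igkv8-30 (90 bases), Igkv4-72 (81 bases) and Igkv8-28 (77 bases), which did not pass the test. How reads matching several segments were assigned is not given in the sources used here, and 3.18% to 3.43% of reads matched several places. Along the locus, segments that were higher without overlap lay 466 to 2605 kb from Igkc, segments that were lower lay 208 to 2470 kb from it and segments that overlapped lay 319 to 3116 kb from it, so the 3 kinds were interleaved.

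**Figure D4:**
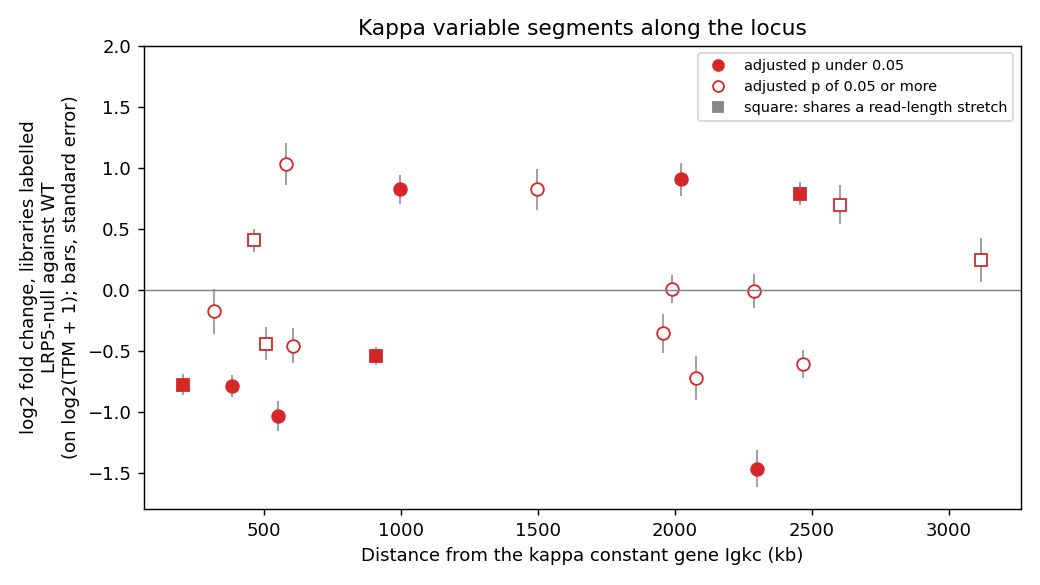
The log2 fold change on log2(TPM + 1), with its standard error as a bar, of the 21 kappa V segments against their distance from Igkc in kb. Filled points mark a limma adjusted p under 0.05, and squares mark segments that share a stretch of at least 94 bases with another. Segments with positive and with negative changes occur at both ends of the range.

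The order of segments within a library was then compared between libraries, as a description with no test. Over the 93 kappa V rows above 0, with no threshold on level, Spearman's rho was 0.84 to 0.91 between WT libraries, 0.86 to 0.92 between libraries labelled LRP5-null and 0.65 to 0.71 between libraries of the 2 groups. Over the 111 heavy V rows above 0 it was 0.80 to 0.86, 0.81 to 0.84 and 0.67 to 0.74. Over the 2985 other rows from 1 to under 5 TPM it was 0.81 to 0.89 within WT, 0.91 within the other group and 0.78 to 0.90 between groups. The sets are not matched in level. Of the V rows, 72 of 93 kappa and 93 of 111 heavy rows were under 1 TPM. WT 3 had a share of ribosomal reads like that of the libraries labelled LRP5-null. Its share of intronic reads (9.0%) was nearer to WT 1 and WT 2. Over the other rows WT 3 was nearer to the libraries labelled LRP5-null (0.88 to 0.90) than to WT 1 and WT 2 (0.81 and 0.87). Over kappa V rows it was nearer to WT 1 and WT 2 (0.89 and 0.91, against 0.66 to 0.68). The part of these library traits in the correlations was not tested. The points of each correlation share their library and its depth, and rows of 1 family may share reads.

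**Figure D5:**
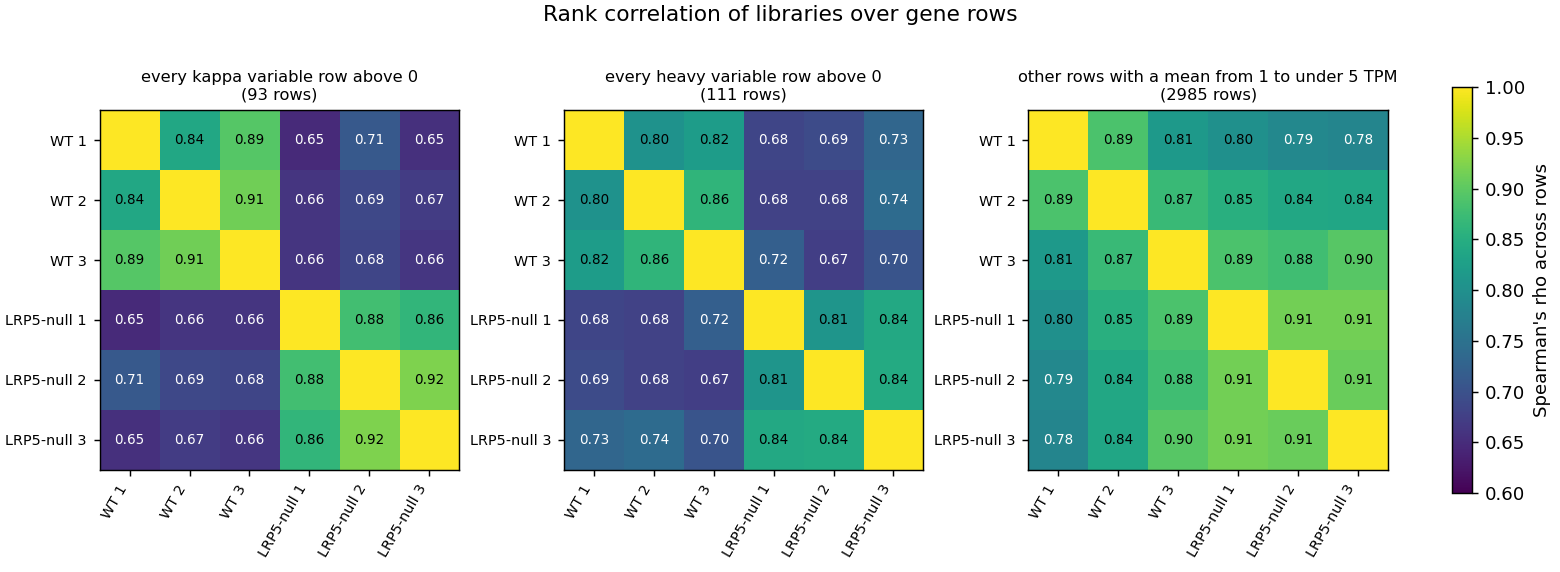
Spearman's rho between each pair of libraries over every kappa V row above 0 (left), every heavy V row above 0 (middle) and other rows with a mean from 1 to under 5 TPM (right), with yellow for higher values. The V rows form 2 blocks by label, with 0.65 to 0.71 (kappa) and 0.67 to 0.74 (heavy) between blocks, whereas in the right panel WT 3 lies at 0.88 to 0.90 with the libraries labelled LRP5-null.

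Neither lambda V segment passed the test. Iglv1 was at 3.97, 4.22 and 5.27 TPM in WT and 4.27, 4.84 and 3.62 TPM in the libraries labelled LRP5-null, overlapping (log2 fold change -0.07 ± 0.12, limma adjusted p = 0.778). Iglv2 was at 0.694, 1.76 and 0.786 TPM against 1.87, 2.08 and 1.63 TPM, overlapping through WT 2 (log2 fold change 0.49 ± 0.19, limma adjusted p = 0.177).

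At the threshold, the lowest members were Igkv8-28 (mean 1.04 TPM), Igkv5-48 (1.06 TPM) and Ighv1-22 (1.06 TPM), and the highest matching rows left out were Igkv4-57 (0.968 TPM), Ighv5-9-1 (0.94 TPM) and Igkv4-59 (0.917 TPM).

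Markers of the cells that make antibodies were present at low levels. All 17 B cell markers were above 0 and summed to 31.0 to 32.9 TPM in WT and 31.5 to 33.2 TPM in the libraries labelled LRP5-null. Of the 10 tested, none was called by limma or had an unadjusted p under 0.05, which 23.5% of all tested rows had. The most abundant were Bank1 (7.18 against 8.14 TPM), Ly6d (4.48 against 4.49 TPM) and Cd79b, a signaling chain of the B cell receptor (4.39 against 4.74 TPM). Pax5, the factor that fixes B cell identity, had a mean of 0.571 TPM. The 9 plasma cell markers summed to 6.57 to 10.4 TPM in WT and to 10.7 to 11.1 TPM in the others, not overlapping, mostly from Jchain, which joins IgM and IgA into polymers, at 7.97, 3.97 and 7.74 TPM in WT and 8.39, 8.04 and 8.39 TPM in the libraries labelled LRP5-null (limma adjusted p = 0.362). Mzb1 and Txndc5 were the next most abundant at 0.792 and 0.67 TPM, and Tnfrsf17 was at 0 in 4 libraries. The part of B lineage cells in the change of V segments was not tested.

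Of the other marker lists, those of T and NK cells (12), eosinophils and basophils (7) and megakaryocytes (4) also did not overlap between groups. Of all single rows tested, 29.7% did not overlap either, and no sum was tested. T and NK cell markers summed to 12.2 to 14.7 TPM in WT and 16.5 to 18.3 TPM in the others, mostly from Cd3d (10.1 against 13.9 TPM), while Cd3e, which T cells express beside it, had a mean of 0.1 TPM, with Nkg7 and Cd3g at 1.41 and 0.622 TPM. Eosinophil and basophil markers summed to 12.5 to 15.5 against 15.7 to 16.9 TPM, with Siglecf (8.37 TPM), Prss34 (2.75 TPM) and Prg2 (1.91 TPM) the most abundant. Prg2, an eosinophil granule protein, was the only marker called (log2 fold change 0.91 ± 0.11, limma adjusted p = 0.034). Megakaryocyte markers (Gp9, Pf4 and Ppbp the most abundant) summed to 3.0 to 4.36 against 4.74 to 5.58 TPM. Markers of monocytes and macrophages (Ly6c2, Csf1r and Adgre1 leading), erythroid cells (Hbb-bs, Hba-a1 and Hbb-bt) and plasmacytoid dendritic cells (Bst2, Tcf4 and Siglech) overlapped between groups. The part of these cells in the result was not tested.

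Genes that make and use rearranged antibody genes were followed in 4 lists, and limma called none of their tested members. Of 14 genes of the surrogate light chain and of segment recombination, 6 were tested. Rag1 and Rag2, which cut the segments, had means of 0.294 and 0.051 TPM, and Vpreb1, part of the surrogate light chain, 0.415 TPM. Of 14 transcription factors of immunoglobulin genes 7 were tested, and of 12 genes of the B cell receptor and its signaling 8 were tested, with 2 in each list at an unadjusted p under 0.05. Among the signaling genes, the kinase gene Lyn, which myeloid cells also use, was at 210.3 against 178 TPM (log2 fold change -0.24 ± 0.07, limma adjusted p = 0.129). Pik3ap1 went the other way, at 39.0 against 46.8 TPM (log2 fold change 0.26 ± 0.09, limma adjusted p = 0.168). Both genes lie outside the rule for naming given below. Of 14 genes of class switching, assembly and secretion 7 were tested, 2 of them at an unadjusted p under 0.05. Over all tested rows, 23.5% had an unadjusted p under 0.05 by limma.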

How the data were processed

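Bone marrow neutrophils were profiled by RNA-seq in 3 WT libraries and 3 libraries with the LRP5-null label. Reads were aligned to mm9 by the authors, who name DESeq2 at its default settings. The deposited expression values are TPM, which are corrected for gene length and sum to the same total in each library. The tool that made the TPM is not given in the sources used here, nor is its annotation, and some identifiers were not found in GENCODE M1. A deposited read summary gives counts of reads, shares of reads in percent, and the read length.

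The 9775 rows with a mean of at least 1 TPM were fitted on the scale log2(TPM + 1) by limma (version 3.58.1, R 4.3.3), using a trend and no covariates, and p-values were adjusted over all of them by the Benjamini-Hochberg method. Fold changes on that scale understate the change of low rows. TPM keeps no depth, so the error comes only from the spread between libraries, and no count model was fitted. The fit was tested on simulated data.

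The members, the marker and pathway lists and the rule for naming were chosen with earlier results of these data known. The rule named every constant member, the 5 heavy, 5 kappa and 3 lambda V members of highest mean, every member with an adjusted p under 0.05, the 3 joining or diversity members of highest mean, the 3 largest changes each way, the 3 rows on each side of the threshold, list genes that were called, and the 3 most abundant markers of each list. Pseudogene status came from RefSeq, matched by symbol for all 52 members. Kappa V sequences and positions came from GENCODE M1 on NCBIM37 and were aligned with Biopython 1.88.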

Additional observations from a re-analysis of the deposited data

How the results depend on the processing

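The count of called members (10) depended on the processing. It was 10 with a pseudocount of 0.1 and with median-ratio scaling, 9 without a trend and 7 with quantile scaling, all among the original 10. Over the whole table, 53, 77, 36 and 47 rows were called in these fits, in that order, beside 52 with the settings above. The count of called members fell to 0 with no filter on low values, where limma called 3 of 23220 rows of the table. Of these 3 rows, 1 was a matching row under the threshold, Igkv1-99 at a mean of 0.483 TPM. In that fit 22 members had an unadjusted p under 0.05, beside 3417 of all rows. It also fell to 0 with a minimum mean of 5 TPM, where 29 of 6745 rows were called. There 1 of 7 members had an unadjusted p under 0.05, beside 1621 of all rows. The fit against WT 3 alone was chosen after seeing the data and assumes that the lone WT library varies like the other group. With each library left out in turn, the count of called members ranged from 0 to 20, and that of called rows of the table from 2 to 1920. All 10 were among the 20 called without WT 3. With the replicate number as a block the count of called members was 0, and limma called 4 rows of the table. In that fit 25 members had an unadjusted p under 0.05, beside 2297 of 9775 rows. Deviations from the group means correlated at 0.23, -0.0075 and 0.13 for equal numbers and at -0.21 to 0.083 for unequal numbers. With 3 libraries a group, these values cannot settle whether the numbers pair the libraries. The cause of these losses was not tested. No called member changed direction in any of the 130 fits of the 10 under an alternative. The groups did not overlap for any of the 10, so only the fits with another scaling could have changed a direction. The kept directions are thus no measure of stability.

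Of 475 fits of the 36 named members under an alternative, 36 changed sign, all for members that were not called. Against WT 3 alone, log2 fold changes of the other sign were -0.057 for Ighm, -0.21 for Igha, -0.10 for Iglc1, -0.20 for Iglc2, 0.20 for Iglc3, 0.049 for Ighv1-41, -0.027 for Ighv1-64 and -0.053 for Ighv1-73. With median-ratio scaling they were -0.015 for Ighm, -0.0011 for Iglc2 and -0.025 for Ighv1-53, and with quantile scaling -0.040 for Iglc1, -0.055 for Iglc2 and -0.066 for Ighv1-53. With each library left out in turn, log2 fold changes crossed 0 for Ighm (-0.018 to 0.080), Igha (-0.058 to 0.25), Ighg2b (-0.11 to 0.065), Iglc1 (-0.082 to 0.11), Iglc2 (-0.064 to 0.15), Iglc3 (-0.16 to 0.032), Ighv1-41 (-0.081 to 0.060), Ighv1-53 (-0.14 to 0.15), Igkv15-103 (-0.14 to 0.080), Igkv6-15 (-0.36 to 0.0067) and Iglv1 (-0.15 to 0.034).

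Ratios of variable to constant TPM depended on the rows summed. For the heavy chain the ratio (mean of the 6 libraries) was 0.80 over every matching row, 0.45 over rows of at least 5 TPM, 0.40 without Ighv1-41 and 0.31 without RefSeq pseudogenes, the last chosen after seeing the data. For kappa it was 0.68 over every matching row and 0.38 without Igkv6-23, and for lambda 0.13 without Iglv1. The log2 ratios of the summed levels between the groups, and the kappa share, moved by less than the spread between libraries in every alternative that could be computed, and no ratio over rows of at least 5 TPM exists for kappa or lambda, which have no variable row that high. With 3 libraries a group and levels near 1 TPM, small differences of single segments could not be seen.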
